A study of Bos taurus with 16 samples.

Results

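Carbonic anhydrase 12 (CA12), the beta-1 subunit of the sodium pump (ATP1B1) and the transcription factor GATA3 were followed in bovine kidney RNA through successive rounds of linear amplification on a spotted cDNA microarray. The members were all spots whose gene symbol in the array's probe annotation was one of these 3 names, which gave 12 of the 16896 spots. Every cDNA clone on the array was printed as a duplicate, so the 12 spots were 6 of 8448 features, with 2 clones for each gene. All 6 were among the 5537 features that named at least 1 gene and had a value in every kidney RNA. The rule uses the gene symbol and no measured value, although the 3 genes were proposed with earlier results of these data known.

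The array carried 2 colours. On each array cDNA made from a kidney RNA was hybridised together with cDNA made from one common bovine reference RNA, and the deposited value of a spot was the log2 ratio of the 2 dyes. Kidney RNA from Bos taurus entered either as unamplified total RNA (round 0) or as RNA amplified through 1, 2 or 3 rounds, and the reference RNA on all 16 arrays had itself been amplified through 2 rounds. Thus round 0 was the one condition in which unamplified RNA was set against amplified RNA. Each round was measured in 2 RNAs, labelled replicate 1 and replicate K, and each of the 8 RNAs was hybridised with kidney in Cy3 and again with kidney in Cy5 (16 arrays). The labels give no age, sex or strain and do not state whether replicates 1 and K came from separate animals, so the p-values below measure the spread between these RNAs, which may be technical. The series is titled as a validation of amplification for single bovine embryos, and the question for each clone was whether its kidney to reference ratio stayed the same from round 0 to round 3.

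As background, the kidney recovers most of its filtrate in the proximal tubule and sets the final salt and acid content of urine in the distal nephron and collecting duct. The sodium pump in the basolateral membrane drives this transport, and it works as an alpha subunit that moves the ions with a beta subunit such as ATP1B1 that brings the complex to the membrane. CA12 is a membrane-bound carbonic anhydrase that interconverts carbon dioxide and bicarbonate at the cell surface, in kidney mainly of thick ascending limb and collecting duct cells. GATA3 is needed for the nephric duct and ureteric bud, from which the collecting ducts form, and is also known from T cells and trophoblast. Linear amplification copies polyadenylated RNA into cDNA that carries a phage promoter and transcribes that cDNA back into many antisense RNA copies.

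The clones are named here by gene and a letter, with the identifier of the array annotation. CA12-A is AW461641 and CA12-B is BF043907. ATP1B1-A is AW463618 and ATP1B1-B is AW461819. GATA3-A is BF046526 and GATA3-B is BF041614. All values are log2 ratios of kidney over reference after each array was centred on its median and the duplicates and the dye orientations of one RNA were averaged, so 0 is the median feature and 1 is a doubling. The labels do not state which dye was the numerator. It was taken as Cy5 over Cy3, the likely direction, because the median ratio of 10 proximal tubule features was then between 2.62 and 3.99 on each of the 16 arrays; with the other direction every sign below turns. Because the members are ratios to the same reference, a value says how a clone stood against the reference and not how abundant its transcript was, and fewer cells of a type cannot be told apart from less RNA per cell.

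Between 14182 and 16057 of the 16896 spots of an array gave a usable number. Duplicate spots correlated across spots with r between 0.496 and 0.822, and the deposited ratios of the dye-swapped arrays of one RNA correlated at -0.663 to -0.235, negative as a swap makes them. The lowest duplicate correlation was on an array of round 2 and the weakest swap correlation in an RNA of round 1. The median ratio over all tested features was between -0.02 and 0.04 in the 4 rounds. Tests were limma's moderated tests over the 8 RNAs with Benjamini-Hochberg adjustment over all 5537 features, and "rose", "fell", "above" and "below" are used for adjusted p under 0.05. The comparisons of rounds 1, 2 and 3 with round 0 share the same 2 round 0 RNAs.

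The clearest pattern among the 6 clones was a fall of CA12-A after the first round and a persistently high ratio of GATA3-B. CA12-A fell 4.37-fold from round 0 to round 1, 6.12-fold to round 2 and 5.47-fold to round 3, while CA12-B, the other clone of the same gene, had a higher mean ratio at each of these rounds than at round 0 and was not called. GATA3-B stood above the reference at all 4 rounds, from 35.2-fold at round 0 to 9.73-fold at round 3, and fell between these rounds. The ratios of the ATP1B1 clones had opposite signs in rounds 1 to 3. Of these levels only that of ATP1B1-B at round 1 was called against the reference. In none of the 3 genes did both clones pass the test in the same comparison of rounds.

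**Figure D1:**
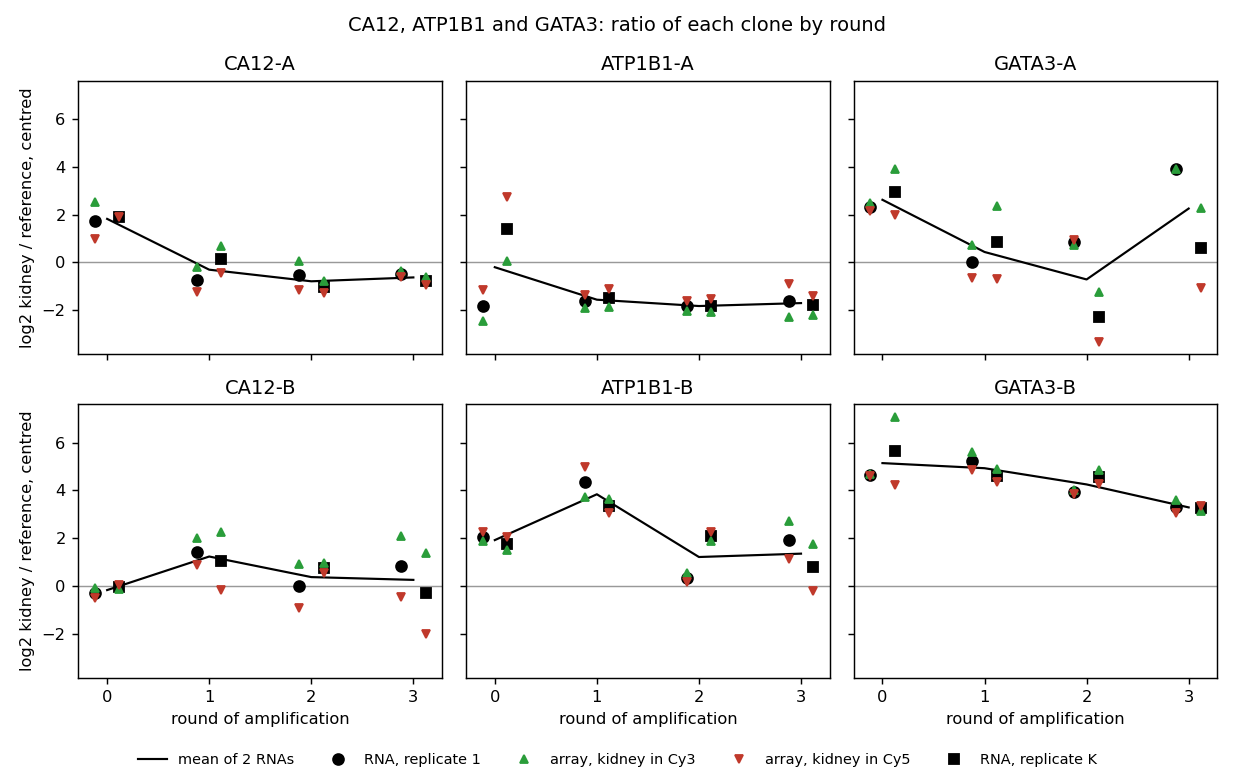
Log2 ratio of kidney over reference (vertical axis, centred) against round of amplification for the 2 clones of CA12, ATP1B1 and GATA3. Black circles and squares are the RNAs of replicate 1 and replicate K, triangles are the single arrays with kidney in Cy3 (green, up) or Cy5 (red, down), and the line joins the means of the 2 RNAs; GATA3-B stays far above 0 at every round, and CA12-A drops below its round 0 values of 1.75 and 1.89 in all later RNAs.

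CA12-A had ratios of 1.75 in replicate 1 and 1.89 in replicate K of unamplified RNA. After round 1 they were -0.74 and 0.12, after round 2 -0.55 and -1.04, and after round 3 -0.48 and -0.78. Both round 0 RNAs were higher than all 6 amplified RNAs, with no overlap, and the amplified rounds overlapped one another. The means were 1.82 ± 0.10 (SD, n = 2), -0.31 ± 0.61, -0.79 ± 0.35 and -0.63 ± 0.21 in rounds 0 to 3.

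The change of CA12-A from round 0 was -2.13 ± 0.34 (SE) at round 1 (adjusted p = 0.0184), -2.61 ± 0.34 at round 2 (adjusted p = 0.0124) and -2.45 ± 0.34 at round 3 (adjusted p = 0.0137). Over the 4 rounds together it also varied (F test, adjusted p = 0.0241). It was above the reference at round 0 (3.53-fold, adjusted p = 0.00224), below it at round 2 (adjusted p = 0.0461), and not called at round 1 or 3 (adjusted p = 0.360 and 0.0926). The call at round 2 was kept in 8 of 21 alternatives, whose values ran from -1.22 to -0.22. It was lost without any of the RNAs of rounds 0, 2 and 3, at -1.04 or -0.55 without replicate 1 or K of round 2 and at -0.79 without the others. In order of its mean ratio the rounds ran 0, 1, 3, 2, and none of the neighbours after round 0 differed beyond their spread. The interval of the difference between rounds 1 and 3 was -1.15 to 0.51 (95%).

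The call on CA12-A rests on few RNAs. Without replicate 1 of round 0 the changes to rounds 1 and 3 were -2.20 and -2.52 and were no longer called, and without replicate K of round 0 all 3 changes, -2.05, -2.54 and -2.38, were no longer called. Without either RNA of round 2 or of round 3 the change to that round kept its sign and lost its call, at -2.86 or -2.37 for round 2 and at -2.60 or -2.30 for round 3. In replicate K of round 0 both spots of CA12-A were empty with kidney in Cy3, so that RNA rests on its Cy5 array alone. In the other 7 RNAs the Cy3 array gave the higher ratio each time, by 0.86 on average, and the 2 dye orientations had the same sign in 5 of 7. In arrays with kidney in Cy5 only, the changes of CA12-A were -2.29, -2.66 and -2.22, and all 3 were called (adjusted p = 0.0439, 0.0297 and 0.0317); with kidney in Cy3 only no fit could be made for this clone because of the empty spots. Under quantile normalization the changes were -1.52, -1.98 and -1.83 and none was called, and without centring those to rounds 2 and 3, -2.05 and -2.15, were not called.

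CA12-B had ratios of -0.30 and -0.06 at round 0 in replicates 1 and K. They were 1.42 and 1.03 at round 1, -0.01 and 0.73 at round 2, and 0.82 and -0.32 at round 3. The RNAs of round 1 were higher than all the others, while those of rounds 2 and 3 overlapped. CA12-B was above the reference at round 1 alone among the 4 rounds (1.23 ± 0.27 SD, adjusted p = 0.0231), and its means at rounds 0, 2 and 3 were -0.18 ± 0.17, 0.36 ± 0.52 and 0.25 ± 0.80. That call was kept in 15 of 22 alternatives, whose values ran from 0.33 to 2.12. It was lost with kidney in Cy5 only (0.33, adjusted p = 0.670), without centring (0.89) and without replicate 1 (1.03) or replicate K (1.42) of round 1.

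The change of CA12-B from round 0 was 1.41 ± 0.44 at round 1 (adjusted p = 0.0866), with an interval of 0.35 to 2.47, and 0.54 and 0.43 at rounds 2 and 3 (adjusted p = 0.444 and 0.549). The dye orientations differed widely for this clone: they had the same sign in 3 of 8 RNAs, the Cy3 array was higher in 7 of 8, and the gap reached 3.38 in replicate K of round 3. In that RNA the 2 Cy5 spots were deposited at 0.453 and -4.644. With kidney in Cy3 only, CA12-B rose at rounds 1 and 3, by 2.24 and 1.85 (adjusted p = 0.0112 and 0.0243), and with kidney in Cy5 only the change to round 3 turned to -0.99 (adjusted p = 0.386).

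ATP1B1-A was the clone with the poorest agreement at round 0. Its ratio was -1.81 in replicate 1 and 1.40 in replicate K of unamplified RNA, a gap of 3.21 between replicates. It was -1.63 and -1.50 at round 1, -1.84 and -1.82 at round 2, and -1.61 and -1.80 at round 3. Thus 7 of the 8 RNAs lay within -1.84 and -1.50 and replicate K of round 0 stood apart above them. Within replicate 1 of round 0 the duplicate spots with kidney in Cy5 were deposited at 0.000 and -3.459, and in replicate K the Cy3 array had 1 usable spot.

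The changes of ATP1B1-A from round 0 were -1.36 ± 0.92 at round 1, -1.63 ± 0.92 at round 2 and -1.50 ± 0.92 at round 3 (adjusted p = 0.348, 0.278 and 0.314). Which round 0 RNA was used decided these values. Without replicate 1 of round 0 the changes were -2.96, -3.23 and -3.11 and all 3 were called, and without replicate K they were 0.24, -0.022 and 0.10 and none was called. The means of rounds 1 to 3, -1.56 ± 0.10, -1.83 ± 0.01 and -1.71 ± 0.13 (SD, n = 2), were not called against the reference (adjusted p = 0.103, 0.0717 and 0.0886), since the fit takes the spread of this clone from all 4 rounds. Both dye orientations had the same sign in 8 of 8 RNAs, with Cy3 the lower in each.

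ATP1B1-B, in contrast, lay above 0 in every RNA. It had ratios of 2.06 and 1.76 at round 0, 4.33 and 3.33 at round 1, 0.35 and 2.06 at round 2, and 1.91 and 0.78 at round 3, in replicates 1 and K. The RNAs of round 1 were the highest, without overlap with any other round, and those of rounds 0, 2 and 3 overlapped. It was above the reference at round 0 (3.77-fold, adjusted p = 0.0212) and round 1 (14.2-fold, adjusted p = 0.00174), and not called at rounds 2 and 3 (adjusted p = 0.0961 and 0.0715). The round 0 call was lost without replicate 1 (1.76) or replicate K (2.06) of that round.

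The rise of ATP1B1-B to round 1 did not pass the test, at 1.92 ± 0.67 with an interval of 0.30 to 3.54 (adjusted p = 0.110). Neither did its changes to rounds 2 and 3 of -0.71 and -0.57 (adjusted p = 0.514 and 0.609), nor the lower ratio at round 2 than at round 1, -2.63 ± 0.67 (adjusted p = 0.323). In order of the mean the rounds ran 1, 0, 3, 2. With all 16 arrays in the fit, a dye term and the RNA as a random block, the rise to round 1 was called at the same size (adjusted p = 0.0303), and with kidney in Cy3 only it was 1.97 (adjusted p = 0.0371).

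GATA3-B had the highest mean ratio of the 6 clones at each round, with the ratio read as kidney over reference. In the single RNAs the exception was replicate 1 of round 3, where GATA3-A was higher. The ratios of GATA3-B were 4.62 and 5.66 at round 0, 5.24 and 4.61 at round 1, 3.93 and 4.55 at round 2, and 3.32 and 3.25 at round 3, in replicates 1 and K. The RNAs of round 3 were the lowest and did not overlap those of any other round, while rounds 0 and 1 overlapped. In means, 5.14 ± 0.73, 4.92 ± 0.45, 4.24 ± 0.44 and 3.28 ± 0.05 (SD, n = 2), the order followed the round number, and no neighbours in that order were called apart.

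Kidney was above the reference for GATA3-B at each round, with adjusted p = 0.000134 at round 0 and 0.000642 at round 3, and the dye orientations had the same sign in 8 of 8 RNAs. This call held in each of the 22 alternative settings run for each round. From round 0 the ratio changed by -0.21 ± 0.42 at round 1 (adjusted p = 0.761, interval -1.23 to 0.80), by -0.89 at round 2 (adjusted p = 0.209) and by -1.86 ± 0.42 at round 3 (adjusted p = 0.0408), which is the fall named above. That fall kept its sign in all 23 alternatives, between -2.50 and -1.10, and its call in 5 of them.

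The size of the GATA3-B fall leaned on replicate K of round 0. With kidney in Cy3 that RNA rested on 1 spot, deposited at -9.388, which gave an array value of 7.07 against 4.24 for the same RNA in Cy5. Without that RNA the change was -1.34, and without that array, an alternative chosen after seeing the data, it was -1.15 (adjusted p = 0.0682). It also lost its call without any of the RNAs of rounds 1, 2 and 3, at -1.82 to -1.89, and it was kept without replicate 1 of round 0 alone among the single RNAs.

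GATA3-A was the least precisely measured clone. Only 23 of its 32 spots gave a usable number, its duplicates differed by 1.23 at the median, a gap larger than in 96.1% of features, and by 4.55 at most. Its ratios were 2.30 and 2.94 at round 0, 0.03 and 0.84 at round 1, 0.84 and -2.28 at round 2, and 3.90 and 0.61 at round 3, in replicates 1 and K. The RNAs of round 0 were higher than those of rounds 1 and 2, but those of round 3 spanned them. Replicate 1 of round 3 rests on 1 spot with kidney in Cy3, because its Cy5 array had an empty spot and the code deposited for an undefined ratio.

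No round of GATA3-A was called against the reference, with a mean of 2.62 ± 0.45 at round 0 (adjusted p = 0.0659) and 2.25 ± 2.33 at round 3 (adjusted p = 0.110). Its changes from round 0 were -2.18 ± 1.31, -3.34 ± 1.31 and -0.37 ± 1.31 (adjusted p = 0.296, 0.144 and 0.870). The interval of the change to round 3 ran from -3.53 to 2.80, so a change as large as the CA12-A fall was not detectable in this clone. Fitted on all 16 arrays, the change to round 2 was called (-3.34, adjusted p = 0.0164). That fit called 1244 of all features to round 2, against 619 in the main fit.

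**Figure D2:**
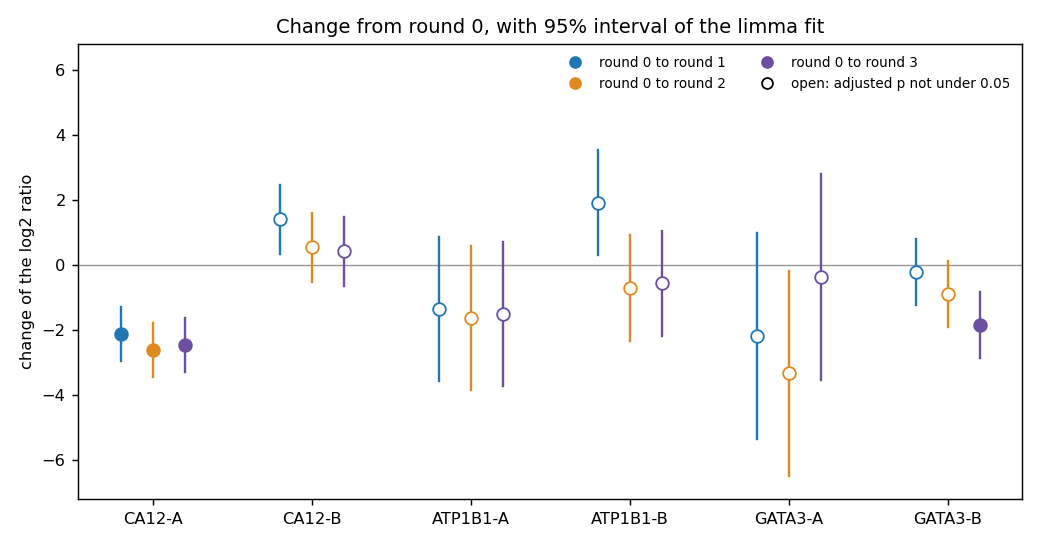
Change of the log2 ratio from round 0 (vertical axis) for each clone at round 1, 2 and 3, with the 95% interval of the limma fit. Filled points have adjusted p under 0.05, which holds for the 3 changes of CA12-A and for GATA3-B at round 3; the widest intervals are those of GATA3-A and ATP1B1-A.

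Counted over the 6 clones, 0 rose and 1 fell from round 0 to round 1, 0 rose and 1 fell to round 2, and 0 rose and 2 fell to round 3. Over all 5537 features tested, 13.3% were called from round 0 to round 1, 11.2% to round 2 and 11.6% to round 3, with 7.87%, 6.79% and 7.04% called lower and 5.40%, 4.39% and 4.57% called higher. The F test called 1 of the 6 clones and 7.59% of all features. With 6 clones these counts are not far from the background. The median change over the 6 clones was -0.79, -1.26 and -1.04, against -0.03, 0.01 and 0.00 over all features. The changes of single clones ran in both directions, from -2.18 to 1.92 at round 1, -3.34 to 0.54 at round 2 and -2.45 to 0.43 at round 3. The median includes changes that were not called, and no test was made on it.

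Between amplified rounds no clone was called by limma. At an unadjusted p under 0.05 there was 1 of 6 from round 1 to round 2, 2 from round 1 to round 3 and 0 from round 2 to round 3, against 10.3%, 21.2% and 7.24% of all features at that same unadjusted threshold; after adjustment 0%, 0.289% and 0% of all features were called. Fitted on all 16 arrays with a dye term, 2 of the 6 were called from round 1 to round 3. The share of all features called there by that fit was not recorded. From round 0 to rounds 1, 2 and 3 it called 1289, 1244 and 1322 of all features, against 735, 619 and 643 in the main fit. Of the 6 clones, 4, 5 and 2 had replicates that did not overlap between round 0 and rounds 1, 2 and 3, against 64.0%, 64.3% and 65.1% of all features. From round 1 to round 2, round 1 to round 3 and round 2 to round 3 the replicates of 4, 3 and 2 clones did not overlap, against 40.7%, 52.6% and 38.4% of all features.

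Against the reference, 3 of the 6 clones were above and 0 below at round 0 (CA12-A, ATP1B1-B and GATA3-B), where 38.7% of all features were called, 19.6% higher and 19.0% lower. At round 1 the same count, 3 above and 0 below, was made up of CA12-B, ATP1B1-B and GATA3-B, with 37.8% of all features called, 16.9% higher and 20.9% lower. At round 2 GATA3-B was above and CA12-A below (35.2% of all features called, 16.5% higher and 18.6% lower), and at round 3 GATA3-B was above (35.1% called, 16.7% higher and 18.4% lower).

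Since both clones of a gene share its symbol in the annotation, their agreement was tested on the difference between them, clone A minus clone B, in the same RNAs. Where each clone lies along a transcript, and whether both report the same transcript, was not known from the sources used here. The tested features with 1 gene symbol gave 1297 pairs of clones of one gene, from 905 genes, and p-values were adjusted over these pairs. For CA12 the difference was 2.05 and 1.95 at round 0 in replicates 1 and K, and then -2.16 and -0.91 at round 1, -0.54 and -1.78 at round 2, and -1.30 and -0.46 at round 3. CA12-A was thus the higher clone in both unamplified RNAs and the lower in all 6 amplified RNAs.

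The change of the CA12 difference was -3.53 ± 0.61 from round 0 to round 1 (adjusted p = 0.0288) and -3.16 ± 0.61 to round 2 (adjusted p = 0.0447), and both were called. To round 3 it was -2.88 ± 0.61 and was not (adjusted p = 0.0564). Of all pairs, 7.86%, 5.94% and 5.55% were called in these comparisons. The call to round 1 was kept in 11 of 22 alternatives and the call to round 2 in 5 of 22, with the sign kept in all. By round, the difference was called at round 0 (2.00, adjusted p = 0.0384), where 11.3% of all pairs were called. It was not called at rounds 1, 2 and 3, at -1.53, -1.16 and -0.88 (adjusted p = 0.0589, 0.139 and 0.257). Averaged over the rounds, whose differences have opposite signs, the 2 clones differed by -0.39 ± 0.22, which was not called (adjusted p = 0.216).

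For ATP1B1 the difference was negative in all 8 RNAs, between -5.97 in replicate 1 of round 1 and -0.36 in replicate K of round 0. Averaged over the rounds it was -3.40 ± 0.44 (adjusted p = 0.00245), where 35.2% of pairs were called. By round it was -2.12 at round 0 (adjusted p = 0.199), -5.40 at round 1 (adjusted p = 0.0139), -3.03 at round 2 and -3.05 at round 3 (adjusted p = 0.0713 and 0.0784). Of all pairs, 11.3%, 19.8%, 16% and 13.5% were called at rounds 0 to 3. No change of it from round 0 was called, the largest being -3.28 ± 1.24 to round 1 (adjusted p = 0.172).

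For GATA3 the difference was negative in 7 of 8 RNAs and 0.58 in replicate 1 of round 3. The lowest value was -6.83 in replicate K of round 2. Over the rounds it averaged -3.25 ± 0.54 (adjusted p = 0.00607), and it was called at rounds 1 and 2, at -4.49 and -4.96 (adjusted p = 0.0401 and 0.0335).

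**Figure D3:**
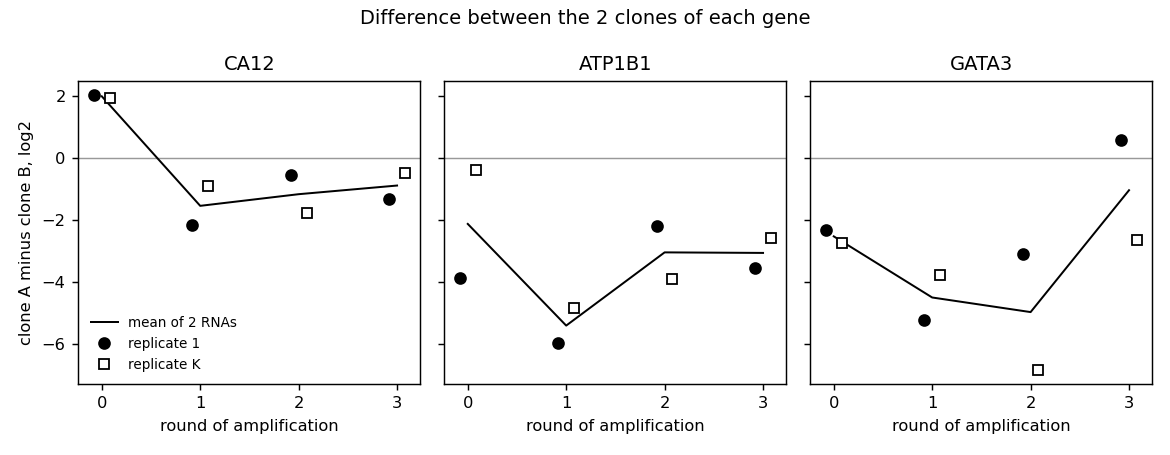
Difference between the log2 ratios of the 2 clones of one gene, clone A minus clone B (vertical axis), against round of amplification. Filled circles are replicate 1, open squares replicate K, and the line joins their means; the CA12 difference changes sign after round 0, from 2.05 and 1.95 to values between -2.16 and -0.46.

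Across the 8 RNAs the clones of CA12 correlated at r = -0.47, those of ATP1B1 at -0.02 and those of GATA3 at -0.11, given as descriptions because all RNAs share the reference and the replicates share their round. Over all pairs the median r was 0.21, with quartiles at -0.18 and 0.58, and 35.2% of pairs were below 0. The 3 genes thus stood at the 11.1, 34.4 and 29.2 percentiles of r. By the mean absolute difference of their ratios, 1.39, 3.40 and 3.39, they stood at the 87.2, 99.6 and 99.5 percentiles, against a median of 0.73.

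For comparison, 337 pairs had at least 1 called clone from round 0 to round 1. In 28 of these both clones were called with the same sign, in 12 with opposite signs, and in 61.1% the changes had the same sign whether called or not. To round 2 the counts were 258, 10 and 9, and to round 3 265, 15 and 6. A called clone beside a partner whose change had the other sign, as in CA12, thus occurred in other pairs on this array too.

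Beside the members, the array carried few of their relatives. Under 1 gene symbol there was 1 other carbonic anhydrase, CA2, the cytosolic enzyme of intercalated and proximal cells. Its ratio was 3.28 and 3.06 at round 0, 2.88 and 2.63 at round 1, 2.79 and 2.42 at round 2, and 2.88 and 2.29 at round 3. CA2 was above the reference at all 4 rounds, and its changes of -0.42, -0.57 and -0.59 were not called (adjusted p = 0.348, 0.230 and 0.212).

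No alpha subunit of the sodium pump and no FXYD protein was on the array under 1 symbol. ATP1B3, the beta-3 subunit, had ratios of -1.39 and -1.19 at round 0 and -0.16 and 0.05 at round 1, and it rose by 1.24 ± 0.29 (adjusted p = 0.0424). At rounds 2 and 3 its means were -1.20 and -1.53, near the round 0 mean of -1.29, and the differences from round 0 were not called (adjusted p = 0.866 and 0.625). ATP1B3 and ATP1B1-B thus both had their highest mean at round 1, but so did CA12-B and ATP12A. The rise of ATP1B1-B was not called, and 5.40% of all features rose at round 1. ATP12A, the alpha subunit of the non-gastric proton pump that can pair with a beta subunit of the sodium pump, went from -0.60 at round 0 to 1.24, 0.99 and 0.70 and was not called.

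GATA2 was represented by 4 clones and GATA6 by 2. These are related zinc finger factors, GATA2 of the collecting duct and endothelium among other cells. The 4 GATA2 clones had round 0 means of 2.32 (BF043343), 0.54 (AW462109), -0.79 (AW464010) and 0.89 (AW464282), so the clones of this gene lay on both sides of the reference. AW464010 fell by 1.23 at round 1 (adjusted p = 0.0402), and the other 3 were not called in any comparison with round 0. Of the GATA6 clones, BF045751 rose by 2.34 at round 1 (adjusted p = 0.0394), from -1.06 to 1.28, while BF043224 had a mean of 1.14 at round 0 and 0.33 at round 1 and was not called.

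**Figure D4:**
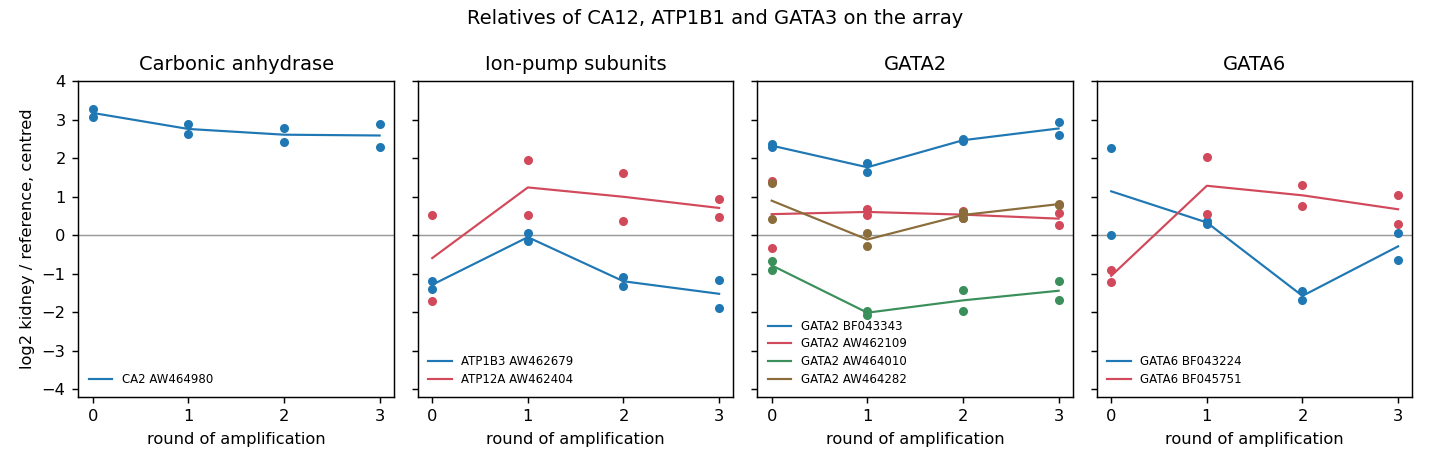
Log2 ratio of kidney over reference (vertical axis, centred) against round for the other carbonic anhydrase, ion-pump subunits and GATA factors on the array, 1 colour per clone. Points are the 2 RNAs of each round and lines join their means; CA2 stays between 2.29 and 3.28, and the GATA2 clones have round 0 means from -0.79 to 2.32.

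Of a list of 57 distal nephron and collecting duct genes, without the 3 members, 14 were on the array as 21 tested features. This list, like all the gene lists here, was drawn up with earlier results of these data known. At round 0, 13 of the 21 features were above the reference and 1 below, against 19.6% and 19.0% of all features. The list had a median ratio of 1.29 at round 0, and the medians of rounds 1, 2 and 3 were 1.78, 0.95 and 1.44. From round 0, 1 rose and 1 fell at round 1, 0 were called at round 2 by limma, and 3 fell at round 3. The median change was -0.13, 0.02 and -0.29, against -0.03, 0.01 and 0.00 over all features.

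SLC4A9, an anion exchanger of intercalated cells, rose by 1.61 at round 1 (adjusted p = 0.0463). STC1 (AW461784), the hormone stanniocalcin, fell by 3.86 at round 1 and fell by 3.75 at round 3 (adjusted p = 0.0283 and 0.0315), while its other 2 clones were not called. SCNN1A, a subunit of the epithelial sodium channel, fell by 1.70 at round 3 (adjusted p = 0.0258), from 4.38 to 2.68. ELF3, an epithelial transcription factor, fell by 2.47 at round 3 (adjusted p = 0.0201). Other features of the list kept high ratios without a call, such as S100G (BF046701), the calcium buffer calbindin-D9k, with means of 5.09, 4.44, 4.53 and 4.21, and the water channel AQP3 (BF040595) at 2.97, 2.78, 3.09 and 2.99.

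Of a list of acid-base transporters and other carbonic anhydrases, 4 genes were present as 5 features, and 1 rose at each round with 0 falling. These were SLC4A9 at round 1 and SLC4A3 (AW465600), an anion exchanger, by 2.97 at round 2 and 2.57 at round 3 (adjusted p = 0.0176 and 0.0250). The other SLC4A3 clone changed by -1.51 at round 2, which was not called. Of 16 features of the vacuolar proton pump, which acidifies urine in intercalated cells and lysosomes in all cells, 2 rose at round 1, 1 at round 2 and 1 at round 3, with 0 falling. One of the 3 ATP6AP1 clones (AW461362) rose by 1.13 at round 1 and 1.00 at round 2 (adjusted p = 0.0236 and 0.0345), while the others changed by -0.36 and 0.22 at round 1 and were not called. One of the 2 ATP6V1B2 clones (AW461404) rose by 1.51 at round 1 (adjusted p = 0.0194), the other changing by 0.66 without a call, and ATP6V0D1 rose by 1.37 at round 3 (adjusted p = 0.0348).

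Of a list of other GATA factors, their partners and kidney development regulators, 6 genes were tested as 11 features. At round 1 GATA6 (BF045751) rose and GATA2 (AW464010) fell, 0 were called at round 2, and 1 rose at round 3, which was TFAP2C (AW462670), a transcription factor of trophoblast, by 2.12 (adjusted p = 0.0292). The other TFAP2C clone (AW465006) changed by 0.12 at round 3 and was not called.

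Markers of other cell types moved between rounds as well, and their part in the results above was not tested. The proximal tubule list had median ratios of 3.68, 3.08, 3.26 and 2.53 over 10 features in rounds 0 to 3, with 0, 1 and 1 rising and 2 falling at each of rounds 1, 2 and 3. Its largest change was in GPX3, a secreted glutathione peroxidase, by -2.17, -3.15 and -5.05 (adjusted p = 0.0461, 0.0215 and 0.00775). One clone (AW465461) of MME, the peptidase neprilysin, had changes of -1.05, -1.40 and -1.43 and fell at each round (adjusted p = 0.0255, 0.0140 and 0.0135), its other clone was not called, and SLC27A2, which takes up fatty acids, rose by 1.41 at round 2 and 1.43 at round 3 (adjusted p = 0.0330 and 0.0311).

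GATA3 is also a gene of T cells and trophoblast. The lymphocyte list had medians of 0.18, -0.48, -0.26 and 0.16 over 6 features, with IGHM, the immunoglobulin heavy chain, rising by 1.07 at round 1 (adjusted p = 0.0389) as its only call. At round 0, 0 of the 6 features were above the reference and 1, IGHM, was below, by the same test. At round 3, 1 was above and 1 below. Over all features 19.6% were above and 19.0% below at round 0, and 16.7% and 18.4% at round 3. One ZAP70 clone was above at rounds 1, 2 and 3 (0.79, 1.13 and 1.26). The other was above at round 1 (2.51) and CD3D at round 2 (2.23), while IGHM was below at every round. The part of lymphocytes or trophoblast cells in the GATA3 ratios was not tested. The trophoblast list of 20 features had medians of -0.53, 0.22, -0.24 and 0.04, with 3 rising and 1 falling at round 1, 1 rising at round 2 and 2 at round 3. Of these features 1 was above the reference and 4 below at round 0, and 2 above and 1 below at round 3. Among the placental genes, 1 of the 4 PAG11 clones (AW462838) rose by 2.12 at round 1 (adjusted p = 0.0312), and the others changed by 1.09, 0.50 and -0.67 and were not called. PRP1 rose by 1.49, PAG7 rose by 1.42 and PAG12 fell by 1.38 at round 1 (adjusted p = 0.0390, 0.0257 and 0.0439).

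The endothelial list of 10 features had medians between 1.33 and 1.62 and gave 1, 2 and 1 rising and 2 falling at each round. PLVAP, of fenestrated capillaries, rose by 2.92 at round 1 (adjusted p = 0.0167), and CDH5 fell by 1.80 (adjusted p = 0.0131). Of the PECAM1 clones one (BF040228) fell by 1.85 at round 1 (adjusted p = 0.0447) and the other (AW462978) rose by 1.17 at round 2 (adjusted p = 0.0404). The stromal list of 16 features had medians of -1.18, -0.29, -0.56 and -0.69, with 2, 2 and 2 rising and 2, 2 and 1 falling. COL6A1 rose by 2.72 and a TAGLN clone (AW461491) by 1.33 at round 1 (adjusted p = 0.0132 for both). MGP fell by 1.87 and an FN1 clone (AW465534) fell by 1.15 at round 1 (adjusted p = 0.0108 and 0.0433), and a DES clone (AW462674) fell by 1.59 at round 2 (adjusted p = 0.0396). The second clones of TAGLN, FN1 and DES were not called in any of the 3 comparisons with round 0. Of 2 podocyte features CD2AP rose by 1.39 at round 1 and fell by 1.37 at round 3 (adjusted p = 0.0406 and 0.0437).

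The features most like each gene were chosen by the smallest root mean square difference over the 8 RNAs from the mean of its clones, with Pearson's r as a further description. For CA12 these were ABRAXAS2 (difference 0.23, r = 0.95), MOSPD1 (0.24, r = 0.88) and HNRNPH2 (0.24, r = 0.88). For ATP1B1 they were TFAP2A (0.38, r = 0.89), E2F6 (0.43, r = 0.84) and SBSPON (0.44, r = 0.85). For GATA3 they were LRBA (0.65, r = 0.85), CA2 (0.72, r = 0.81) and MME (0.78, r = 0.68). A mean over clones that disagree describes neither clone. Matched singly, CA12-A was nearest to RNPEPL1 (0.27, r = 0.98) and CA12-B to CLSTN1 (0.28, r = 0.92), and GATA3-B to DPP4 (0.59, r = 0.85), a brush border peptidase with round means of 4.53, 4.54, 4.01 and 2.86.

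The features next to the members in the deposited order were described by their medians only. The medians of the 10 features on each side of a clone were between -0.26 and 0.50 in all 4 rounds. GATA3-B was at 4.24 to 5.14 at rounds 0 to 2 and ATP1B1-B at 3.83 at round 1. A median cannot show whether a single adjacent feature had a like value. Whether the deposited order follows the position on the array was not tested.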

How the data were processed

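The authors deposited, per the file headers, 1 log2 ratio of the dye channels per spot and array for 16 arrays of bovine kidney RNA against a common reference; the deposited column of round 1, replicate 1, kidney in Cy3 is listed as a score, since beside log2 ratios it holds numbers far outside that range; its numbers within the limit below were used as log2 ratios. Per the labels' protocols, RNA was isolated with Trizol, amplified as stated, reverse-transcribed with amino-allyl dUTP and coupled to Cy3 or Cy5. Scanner, background correction, normalization and spot intensities were not given in the sources used here, so dim spots could not be left out; the number of arrays limits precision.

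Numbers beyond 10 in size, among them 16.61, the code for an undefined ratio, were treated as missing. Duplicate spots were averaged and each array was turned to kidney over reference. Arrays were then centred by subtracting the median ratio over features with a listed gene, and averaged over the dyes of each RNA. Of 8448 features 5598 had 1 symbol, 95 several and 2755 none in the platform annotation; 5591 of the 5598 matched RefSeq's gene table by gene ID, all with the same symbol. A linear model of 4 rounds with 2 RNAs each was fitted with limma 3.58.1 in R 4.3.3 (lmFit and eBayes, 4 residual and 2.4 prior degrees of freedom). The main fit did not pair the RNAs by replicate 1 and K. Deviations of same-named RNAs correlated at -0.05 to 0.17 between rounds, which cannot show whether they share a source. The fit was tested on simulated data.

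The members and all gene lists were chosen with earlier results of these data known. Named were all clones of the 3 genes, the 3 features with the ratios most like each gene, up to 3 features of each list with the largest called rise and fall, and every other carbonic anhydrase, sodium pump, FXYD and GATA feature; the single-clone likenesses and uncalled list features were added after their values were seen. Alternatives were no centring, scaling, quantile normalization, all arrays with a dye term, 1 dye, 1 duplicate spot, a limit of 6, all features, 2 rounds only, a replicate block, robust eBayes, each RNA or 1 array left out, and turned signs.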

Additional observations from a re-analysis of the deposited data

Results flagged for a closer look

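One array stood apart from the others of its group. For GATA3-B in unamplified RNA, replicate K with kidney in Cy3 had a ratio of 7.07, against 4.66 for the nearest of the other 3 arrays of that round, a gap of 0.850 of the whole range, which is above the 95% critical value of Dixon's test for 4 arrays. The value rests on 1 spot, deposited at -9.388, and the duplicate spot was empty. Chance alone flags about 1 in 20 groups of independent arrays, and 22 groups of clone and round were tested. The 4 arrays are dye swaps of 2 RNAs and so are not 4 independent samples, and the Cy3 array of GATA3-B was the higher in 7 of 8 RNAs. Its effect on the fall of GATA3-B is given with that result, and its cause was not tested.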

How the results depend on the processing

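The changes of CA12-A from round 0 kept their direction under all 22 alternatives run for them, and the calls of GATA3-B above the reference were kept at every round. Counts below are of the 6 clones called from round 0 to rounds 1, 2 and 3 (1, 1 and 2 as reported), of clones called over the 4 rounds by the F test (1), of called clone and round levels against the reference (9) and of called changes of a clone difference (2). CA12-A could not be fitted with kidney in Cy3 only, nor GATA3-A with kidney in Cy5 only or from the second spots, so those counts are of 5 clones and leave out that gene's clone difference. Where a value changed, the cause was not tested.

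Without centring, CA12-A changed by -2.05 to round 2 and -2.15 to round 3 and GATA3-B by -2.22 to round 3, none called; the round 0 levels of CA12-B and ATP1B1-A turned to 0.50 and 0.47; and 0 clones were called to rounds 2 and 3, by the F test or in clone differences. Scaling left GATA3-B at -2.07 to round 3, uncalled, and 1 clone called there. Under quantile normalization CA12-A changed by -1.52, -1.98 and -1.83 and GATA3-B by -1.20 to round 3, uncalled, GATA3-B to round 1 and GATA3-A to round 3 turned to 0.042 and 0.091, and all these counts were 0 except the levels. With all 16 arrays and a dye term, ATP1B1-B at 1.92 to round 1 and GATA3-A at -3.34 to round 2 were called, 2 clones to round 1, 2 to round 2, 2 from round 1 to round 3, 4 by the F test, 4 clone differences and 16 levels. Over all features that fit called 1289, 1244 and 1322 from round 0 to rounds 1, 2 and 3, against 735, 619 and 643 as reported.

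With kidney in Cy5 only, GATA3-B turned to 0.19 at round 1 and was uncalled at -1.21 to round 3, CA12-B turned to -0.99 to round 3, the levels of ATP1B1-A at round 0 and CA12-B at rounds 2 and 3 turned to 0.78, -0.20 and -1.23, that of CA12-B at round 1 was uncalled at 0.33, 1 clone was called to round 3, and 0 by the F test and in differences. With kidney in Cy3 only, CA12-B (2.24 and 1.85 to rounds 1 and 3) and ATP1B1-B (1.97 to round 1) were called, GATA3-B was uncalled at -2.50, ATP1B1-B turned to 0.53 to round 3, and the counts were 2, 0 and 1, with 16 levels and 0 differences. From the first spots, GATA3-B turned to 0.71 at round 1 and was uncalled at -1.71 to round 3, the level of ATP1B1-A at round 0 turned to 0.00225, 1 clone was called to round 3 and 0 by the F test and in differences. From the second spots, CA12-B to round 3 turned to -0.29 and its level there to -0.35, ATP1B1-A at round 0 to 0.37, GATA3-B was uncalled at -1.18, and 1 clone was called to round 3 and 0 differences.

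A limit of 6 turned GATA3-B to 0.27 at round 1 and gave 2 clones by the F test. Testing all features left GATA3-B at -1.86 uncalled and 1 clone called to round 3. With only the 2 rounds compared, CA12-A to round 1 (-2.13) and GATA3-B to round 3 (-1.86) were uncalled, with 0 and 1 clones called. With the replicate block GATA3-B was uncalled at -1.86 (adjusted p = 0.0563), 1 clone was called to round 3, and 0 by the F test and in differences; the level of CA12-A at round 2 also lost its call, and the block changed no other call. Replicates 1 and K share only a name (their deviations are given with the processing). Robust eBayes, and leaving out the Cy3 array of round 1, replicate 1, gave 1 called clone difference each, the latter with 0 by the F test. Without the Cy3 array of round 0, replicate K, chosen after seeing the data, GATA3-B turned to 0.50 at round 1 and was uncalled at -1.15, GATA3-A to round 3 turned to 0.12, ATP1B1-A at round 0 to 0.47, and 1 clone was called to round 3. Turning the ratio to Cy3 over Cy5 turns every sign and changes no call.

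Leaving out each RNA in turn, which leaves 1 RNA in a round and assumes that it varies like the others, gave changes from round 0 to rounds 1, 2 and 3 of -2.56 to -1.70, -2.86 to -2.37 and -2.60 to -2.30 for CA12-A, -2.96 to 0.24, -3.23 to -0.022 and -3.11 to 0.10 for ATP1B1-A, -0.73 to 0.30 (round 1) and -2.37 to -1.34 (round 3) for GATA3-B, -1.57 to 0.15 (round 2) and -1.14 to 0.000438 (round 3) for ATP1B1-B, and to round 3 -0.14 to 1.00 for CA12-B and -2.01 to 1.28 for GATA3-A. Counts of called clones ranged over 0 to 1, 0 to 2 and 0 to 2, by the F test 0 to 1, and of clone differences 0 to 1. Levels ranged from -1.81 to 1.40 for ATP1B1-A at round 0, -0.74 to 0.12 for CA12-A at round 1, -2.28 to 0.84 for GATA3-A and -0.0065 to 0.73 for CA12-B at round 2, and -0.32 to 0.82 for CA12-B at round 3. Changes of the clone difference ranged from -2.67 to 0.84 (round 2) and -2.69 to 0.82 (round 3) for ATP1B1 and from -0.12 to 3.10 (round 3) for GATA3. Over all features the calls when 1 RNA was left out ranged from 108 to 464, 22 to 528 and 91 to 541 for rounds 1, 2 and 3.

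Over all alternatives of every kind, the calls over all features ranged from 2 to 1868, 22 to 1244 and 91 to 1322 for rounds 1, 2 and 3, around 735, 619 and 643.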
